A study of Mus musculus with 8 samples.

Results

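The miR-378 family comprises 5 mature microRNAs on the array, namely both arms of miR-378a (mmu-miR-378a-3p and mmu-miR-378a-5p), mmu-miR-378b, mmu-miR-378c and mmu-miR-378d, written below without the species prefix. They were chosen by name among the 1881 mouse miRNAs that the array carries, and all 5 were found. They were measured with 10 of the 4415 probes, a pair for each member. Kidney RNA came from male Akita mice (strain label C57BL/6-Ins2Akita/J, 4 samples) and from male C57BL/6J controls (4 samples, called Mock in the titles). The labels give the age of every mouse as 36 without a unit. The Ins2 mutation acts in the beta cells of the pancreas, so the kidney is exposed to diabetes and does not itself express the defect. Each sample was hybridised to 1 one-colour array, and the labels do not state whether the samples are separate mice, so that p-values measure only the spread between samples, which may be technical.

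The miR-378a hairpin lies in Ppargc1b, the gene of PGC-1beta, a coactivator that switches on mitochondrial and fatty acid oxidation genes, and the miRNA is made together with its host transcript. Mice that lack this hairpin resist diet-induced obesity and have a raised oxidative capacity, which is why the family is counted among the regulators of mitochondrial metabolism. The proximal tubule of the kidney depends on fatty acid oxidation for its energy. In the RefSeq annotation of GRCm38.p6, Mir378a overlaps Ppargc1b, Mir378b overlaps Msi2, which encodes an RNA-binding protein, Mir378c overlaps Samd4, which encodes a translational repressor, and the uncharacterised gene Gm52120, and Mir378d overlaps no other listed gene.

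Mature sequences of 3 of the 5 members were taken from RefSeq (GRCm38.p6), and those of the miR-378a arms are not reported here. The 3 shown differ so little from each other that probe sequence alone scarcely separates them. Capitals mark the seed, bases 2 to 8, through which a miRNA recognises its targets.
miR-378b (chr11:88352839-88352858, plus strand): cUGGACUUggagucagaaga
miR-378c (chr14:46954905-46954925, minus strand): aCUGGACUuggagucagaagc
miR-378d (chr10:126710355-126710376, minus strand): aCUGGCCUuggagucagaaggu
The seeds of the 3 members all differ. The seed of miR-378b is that of miR-378c shifted by 1 base, since miR-378b starts 1 base later, and miR-378d departs from miR-378c by the substitution A6C inside the seed. With positions counted from 1 at the 5′ end of miR-378c, the other substitution in miR-378d is C21G, and with positions counted from the 5′ end of miR-378b, miR-378c departs from it by A20C. MiR-378b and miR-378c share an unbroken run of 19 bases, and miR-378d shares 14 with each of them.

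The hairpins place these near-identical miRNAs on different arms, which is shown here with the mature miRNA in capitals.
miR-378b hairpin (chr11:88352773-88352864, plus strand): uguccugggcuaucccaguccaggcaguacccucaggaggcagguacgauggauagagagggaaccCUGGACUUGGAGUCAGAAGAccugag
miR-378c hairpin (chr14:46954830-46954928, minus strand): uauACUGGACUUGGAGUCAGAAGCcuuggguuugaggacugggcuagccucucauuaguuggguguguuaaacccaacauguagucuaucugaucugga
miR-378d hairpin (chr10:126710282-126710391, minus strand): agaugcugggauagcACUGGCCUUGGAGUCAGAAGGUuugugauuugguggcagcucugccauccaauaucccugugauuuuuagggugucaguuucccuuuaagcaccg
MiR-378b lies towards the 3′ end of its hairpin, at bases 67 to 86 of 92, whereas miR-378c (bases 4 to 24 of 99) and miR-378d (bases 16 to 37 of 110) lie towards the 5′ end.

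The probes set the limit of what can be told apart. They are written 5′ to 3′ as DNA, and capitals mark the stretch of 14 bases that pairs with miR-378b, miR-378c and miR-378d alike.
miR-378b, 16 bases: tCTTCTGACTCCAAGt
miR-378b, 17 bases: tCTTCTGACTCCAAGtc
miR-378c, 15 bases: gCTTCTGACTCCAAG
miR-378c, 16 bases: gCTTCTGACTCCAAGt
miR-378d, 16 bases: acCTTCTGACTCCAAG
miR-378d, 17 bases: acCTTCTGACTCCAAGg
Only 1 to 3 bases of each probe lie outside the common stretch. Both probes of miR-378a-3p, of 13 and 14 bases, are complementary over their whole length to miR-378d, and over 12 and 13 bases to miR-378b and miR-378c. Probe sequence alone therefore does not assign the signals named miR-378a-3p, miR-378b, miR-378c and miR-378d to 1 member each. Each is described below as the signal of its probes. The probes did differ in signal despite the common stretch. After the scaling given below, the 15-base probe of miR-378c had 16.1 to 23.3. The 16-base probes had 90.9 to 108.3 (miR-378c), 170.1 to 202.3 (miR-378b) and 612.1 to 741.5 (miR-378d). How much each probe binds the other members was not tested. The probes of miR-378a-5p, of 17 and 18 bases, have at most 4 consecutive bases in common with the complement of these 3 members.

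All 5 members were well above background on all 8 arrays. Signals were scaled to the 75th percentile of the 451 probes that were above background throughout, summed over the probes of each miRNA, and logged. The floor for dim miRNAs was 4.57 on this scale. Every member was detected in kidneys in which 6 of 7 listed miRNAs of skeletal and cardiac muscle, the tissues best known for miR-378, were below background on every array. The remaining one, miR-1a-3p, was above background on 3 of 4 arrays in each group, and the summed scaled signal of the muscle list was 38.8 to 58.7 in Akita and 32.5 to 61.2 in control kidneys. All 6 listed tubular miRNAs were above background on every array, with sums of 22849 to 26629 in Akita and 22284 to 25210 in control kidneys. The leukocyte list moved with the groups, at 737 to 877 in Akita and 1075 to 1239 in control kidneys, with 5 of 6 members lower past the threshold (6.32% of all tested miRNAs were), and its part in any value below was not tested. Changes in cell number and in RNA per cell cannot be told apart in whole kidneys.

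No member of the family differed between Akita and control kidneys at an adjusted p under 0.05. The comparison used limma over 285 tested miRNAs, of which 42 were called (14.7%, of which 8.42% higher and 6.32% lower in Akita), with Benjamini-Hochberg adjustment, and no member had an unadjusted p under 0.05 either. The 5 log2 fold changes, Akita minus control, ran from -0.13 to 0.0066 with a median of -0.012, beside a median of 0.063 over all tested miRNAs. In no member were the groups separate, whereas 22.8% of all tested miRNAs had groups that did not overlap.

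The guide arm mmu-miR-378a-3p, known to repress the mitochondrial carnitine O-acetyltransferase Crat, had log2 scaled signals of 10.15, 9.98, 10.12 and 10.17 in Akita kidneys and 10.04, 10.15, 10.10 and 10.11 in control kidneys. The lowest and the highest of the 8 values were both from Akita kidneys, and the control values lay between them. The mean was 10.11 ± 0.09 (SD, n = 4) in Akita kidneys and 10.10 ± 0.05 (SD, n = 4) in controls, and the log2 fold change was 0.0066 ± 0.068 SE (95% interval -0.15 to 0.16, limma adjusted p = 0.973).

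The signal of mmu-miR-378a-5p, the other arm of the same hairpin, known to repress the estrogen-related receptor gamma, the Mediator subunit MED13 and the nuclear transcription factor subunit GABPA, which acts on genes for mitochondrial proteins, was the member with the lowest fold change. Its log2 scaled signals were 6.46, 6.23, 6.44 and 6.53 in Akita kidneys and 6.44, 6.65, 6.56 and 6.52 in control kidneys. Akita replicate 2 lay below all others, and the other 3 Akita values fell within or next to the control range. The mean was 6.42 ± 0.13 (SD, n = 4) in Akita kidneys and 6.54 ± 0.09 (SD, n = 4) in controls, and the log2 fold change was -0.13 ± 0.083 SE (95% interval -0.32 to 0.059, limma adjusted p = 0.298).

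The probes of mmu-miR-378b, whose own functions are little described, gave log2 scaled signals of 9.88, 9.65, 9.80 and 9.81 in Akita kidneys and 9.71, 9.88, 9.79 and 9.81 in control kidneys. The groups covered nearly the same range, and the log2 fold change was -0.012 ± 0.072 SE (95% interval -0.17 to 0.15, limma adjusted p = 0.941). The probes of miR-378d gave 10.15, 9.90, 10.09 and 10.08 in Akita kidneys and 10.02, 10.18, 10.09 and 10.13 in control kidneys. Again 3 of the 4 Akita values lay inside the control range, and the log2 fold change was -0.046 ± 0.075 SE (95% interval -0.21 to 0.12, limma adjusted p = 0.688).

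The probes of miR-378c gave log2 scaled signals of 7.04, 6.77, 6.85 and 6.84 in Akita kidneys and 6.85, 6.94, 6.84 and 6.85 in control kidneys. Both ends of the range were Akita values, replicate 1 at the top and replicate 2 at the bottom. The log2 fold change was 0.0059 ± 0.075 SE (95% interval -0.16 to 0.17, limma adjusted p = 0.975). Under this scaling the intervals of miR-378a-3p, miR-378b, miR-378c and miR-378d lay between -0.21 and 0.17, while that of miR-378a-5p reached down to -0.32.

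**Figure D1:**
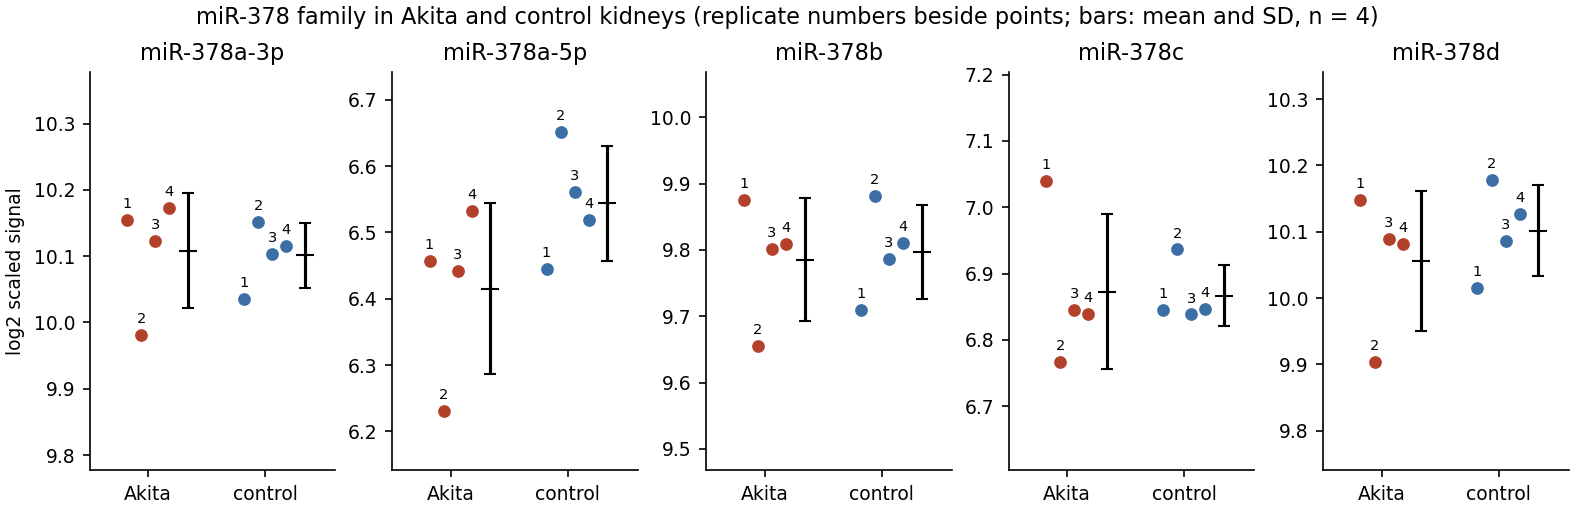
Log2 scaled signal of each member (vertical axis, a span of 0.6 in every panel) in the 4 Akita and 4 control kidneys, with replicate numbers beside the points and bars for mean and SD. The groups overlap in every panel, and Akita replicate 2 is the lowest point in all 5.

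Akita replicate 2 was the lowest of the 8 arrays for all 5 members. Control replicate 2 was the highest for miR-378a-5p, miR-378b and miR-378d. Without Akita replicate 2 none of the 5 members was called, and with each of the other 7 arrays left out in turn none was called either. Leaving out Akita replicate 4 gave miR-378a-5p its lowest value among these fits, -0.23 (adjusted p = 0.0971, over a range from 0.0971 to 0.520).

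The single probes gave the same picture as their sums, as the plot of changes by miRNA and probe shows. Of the family's 10 probes 9 were tested among 511, none was called, and 10.8% of all tested probes were. The log2 fold changes were 0.0034 and 0.0088 for the 13-base and 14-base probes of miR-378a-3p, -0.030 and -0.0067 for the 16-base and 17-base probes of miR-378b, and -0.038 and -0.059 for those of miR-378d. The probes of miR-378a-5p had the lowest, -0.15 for the 17-base probe (95% interval -0.30 to 0.0017, limma adjusted p = 0.152) and -0.11 for the 18-base probe (95% interval -0.34 to 0.12, limma adjusted p = 0.463). The probe left out was the 15-base probe of miR-378c, whose scaled signals of 16.1 to 23.3 lay at the edge of background, so that the signal named miR-378c rests mainly on its 16-base probe (90.9 to 108.3).

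**Figure D2:**
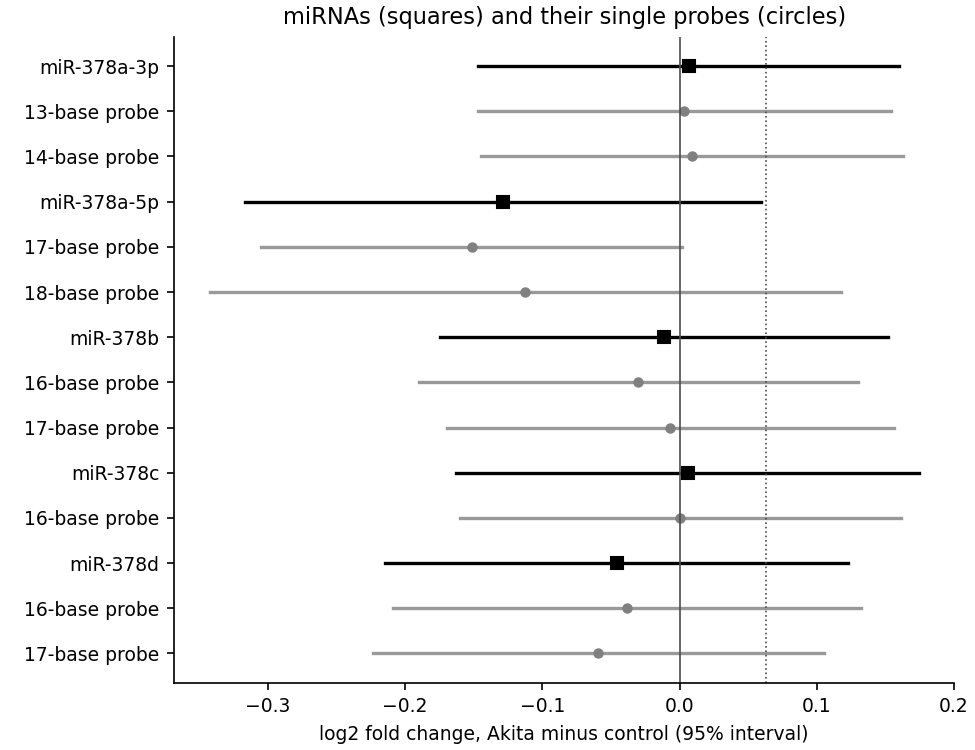
Log2 fold change, Akita minus control, with its 95% interval for the 5 miRNAs (black squares) and the 9 tested probes (grey circles); the dotted line marks the median of all tested miRNAs, 0.063. All intervals reach across 0, and the miR-378a-5p probes lie farthest to the left.

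Each probe was spotted 15 times per array, which shows how precise a single array was. The coefficient of variation over these spots had a median over the arrays of 2.84% for the 16-base probe of miR-378d, 3.63% and 4.06% for the probes of miR-378a-3p, and 10.6% and 12.3% for the dimmer probes of miR-378a-5p. It was 21.0% for the 15-base probe of miR-378c. Before scaling, negative control spots averaged between -0.12 and 2.94 per array in Akita and between 0.55 and 1.59 in control kidneys. The unscaled signals of the miR-378a-5p probes were 32.2 to 59.4. On Akita replicate 4, the array with 2.94, these probes had 32.2 and 41.4.

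The signals of most members moved together from array to array. The log2 ratio of miR-378b to miR-378d had a standard deviation of 0.022 over the 8 arrays, and that of miR-378a-3p to miR-378b 0.029. The corresponding Pearson correlations were 0.971 and 0.927, given as a description over 8 arrays that share labelling and scaling. MiR-378c followed miR-378a-3p less closely, with a standard deviation of 0.067 for the log2 ratio and a correlation of 0.615. MiR-378a-5p, whose probes are of another sequence, had correlations of 0.771 to miR-378a-3p, 0.775 to miR-378b, 0.860 to miR-378d and 0.420 to miR-378c. The Spearman rank correlations were lower, at 0.476, 0.619, 0.548 and 0.286 in the same order, and Akita replicate 2 was the lowest array for all 5 members. With the mean of each group subtracted first, the Pearson correlations of miR-378a-5p were 0.969, 0.884, 0.882 and 0.534 in the same order. By that measure miR-378b to miR-378d had 0.992, and miR-378a-3p to miR-378b had 0.935. The log2 ratio of miR-378a-5p to miR-378a-3p had a standard deviation of 0.084.

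The ratio of the miR-378a arms within an array cancels any factor that multiplies the whole array, though not a scaling that depends on signal level, such as quantile or cyclic loess scaling. The 3p signal exceeded the 5p signal 13.0-fold, 13.5-fold, 12.8-fold and 12.5-fold in Akita kidneys, and 12.05-fold, 11.3-fold, 11.7-fold and 12.1-fold in control kidneys. All 4 Akita ratios lay above all 4 control ratios. These are ratios of probe signals and not of molecules, since probes differ in how strongly they bind, and the 3p signal may hold miR-378d, as given above.

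On the log2 scale the arm ratio was 3.69 ± 0.045 (SD, n = 4) in Akita kidneys and 3.56 ± 0.045 (SD, n = 4) in controls, a difference of 0.14, or 1.10-fold. The exact two-sided permutation test gave p = 0.0286, the smallest that 4 against 4 samples can give. Among the 24 hairpins with both arms tested, however, 7 had groups that did not overlap (29.2%), and 2 were called by limma over these hairpins (8.33%), namely miR-652 and let-7b. MiR-378a came next by p in that fit and missed the threshold (95% interval of the difference 0.044 to 0.23, limma adjusted p = 0.0729, and 0.0980 for the exact test adjusted over the 24). The difference also varied with the processing: with cyclic loess scaling it was 0.21 (exact permutation p = 0.114) and with quantile scaling 0.24 (exact permutation p = 0.0286, limma adjusted p = 0.0472). With normexp correction it was -0.072 (exact permutation p = 0.114). That setting subtracts the background in another way and adds an offset of 50 before scaling. Which of these changed the sign was not tested. Without control replicate 2 the difference was 0.12 (exact permutation p = 0.0571). The median difference over the 24 hairpins was 0.0043, with 12 of them above 0.

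**Figure D3:**
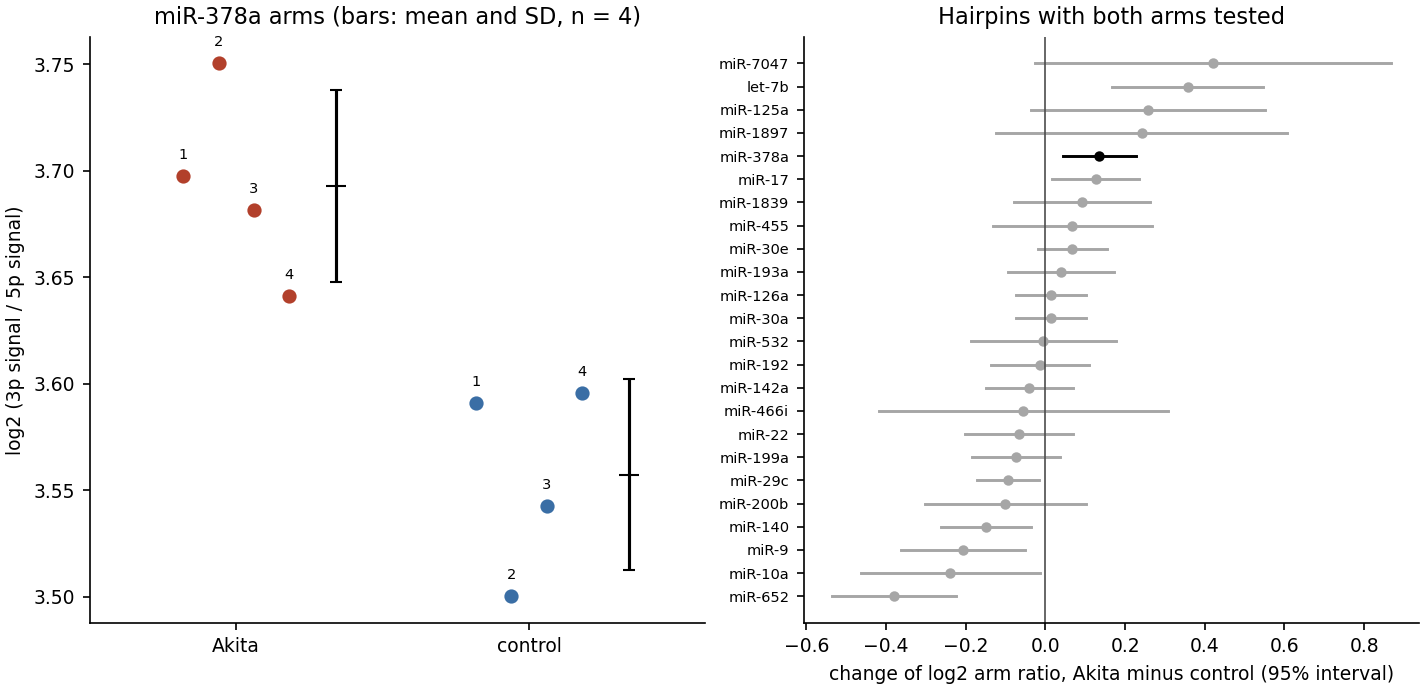
Left, log2 of the 3p signal over the 5p signal of miR-378a in each kidney, with bars for mean and SD; the 4 Akita points, from 3.64 to 3.75, lie above the 4 control points, from 3.50 to 3.60. Right, change of the log2 arm ratio, Akita minus control, with 95% intervals for the 24 hairpins with both arms tested, miR-378a in black at 0.14.

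The ratio differed in the single probes as well, though not in every pairing. With the 17-base probe of miR-378a-5p, the log2 ratio to the 13-base and 14-base probes of miR-378a-3p was higher in Akita by 0.15 and 0.16, with no overlap (exact permutation p = 0.0286 each). With the 18-base probe it was higher by 0.12 against each 3p probe, with overlap (exact permutation p = 0.0857 and 0.0571). These 4 pairings share their probes and are not independent of each other.

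The absence of calls in the family held where arrays were scaled to their own miRNA signals. It changed where arrays were left unscaled or scaled to the labelling spike-ins. Before scaling, the 75th percentile averaged 420.8 ± 35.2 (SD, n = 4) on Akita arrays and 506.7 ± 10.3 (SD, n = 4) on control arrays. The unscaled signals of the members were lower in Akita too, with differences from -16.3% (miR-378c) to -24.2% (miR-378a-5p). MiR-378a-3p had an unscaled signal of 1001 ± 82.4 in Akita and 1201 ± 55.9 in control kidneys, a difference of -16.7%. MiR-378a-5p had 77.4 ± 6.51 in Akita and 102.1 ± 6.69 in control kidneys, a difference of -24.2%.

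Without scaling, 4 of the 5 members were called lower in Akita, all but miR-378c, and all 5 were when the labelling spike-ins served for scaling. Unscaled and spike-in scaled, the log2 fold changes were -0.27 and -0.24 for miR-378a-3p, and -0.40 and -0.37 for miR-378a-5p. The median of all tested miRNAs shifted as well, to -0.21 and -0.18. Any scaling by 1 factor per array leaves a member unchanged relative to this median, at -0.056 for miR-378a-3p and -0.19 for miR-378a-5p. With quantile scaling, which changes arrays by signal level, these were 0.031 and -0.21, and with cyclic loess -0.0086 and -0.21. The other 4 scalings called none of the 5. All Akita arrays lay in row 2 and all control arrays in row 1 of 1 slide, and the effects of row and genotype cannot be told apart.

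**Figure D4:**
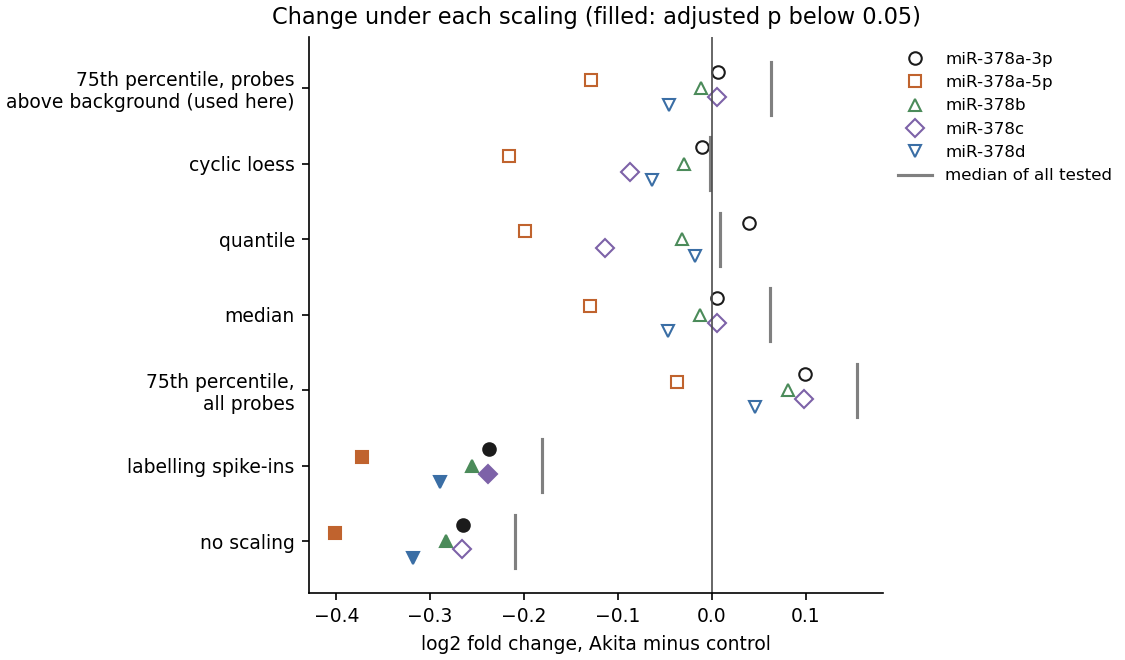
Log2 fold change, Akita minus control, of the 5 members under 7 ways of scaling the arrays, with the median of all tested miRNAs as a vertical bar and filled symbols for an adjusted p under 0.05. Where 1 factor per array was used the members and the median bar shift alike by construction, with quantile and cyclic loess scaling the members shift unequally, and miR-378a-5p lies left of the other members in every row.

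Other miRNAs tied to mitochondrial, lipid or glucose metabolism were not uniform. Of 25 listed miRNAs 18 were tested, 3 were higher and 1 lower in Akita kidneys, and their median log2 fold change was 0.037, beside 8.42% higher, 6.32% lower and a median of 0.063 over all tested miRNAs. Higher were miR-210-3p, which represses the iron-sulphur cluster scaffold ISCU of the mitochondria (log2 fold change 0.91 ± 0.16 SE), miR-193b-3p, which supports brown fat differentiation (0.74 ± 0.085 SE), and miR-149-5p (0.46 ± 0.077 SE). Lower was miR-181c-5p, which is found in mitochondria and represses the mitochondrial gene mt-Co1 (-0.50 ± 0.080 SE).

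Some listed miRNAs that, like miR-378a, lie inside metabolic genes were not called. MiR-33-5p, from an intron of the sterol regulator Srebf2, had log2 scaled signals of 5.53 ± 0.13 in Akita and 5.72 ± 0.019 in control kidneys (SD, n = 4 each, limma adjusted p = 0.121). Its groups did not overlap, as was the case for 22.8% of all tested miRNAs. MiR-103-3p and miR-107-3p, from introns of pantothenate kinase genes, had log2 fold changes of 0.042 and 0.032.

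The miRNAs whose log2 scaled signals most resembled those of miR-378a-3p over the 8 arrays were miR-23b-3p (Pearson r = 0.977), let-7g-5p (0.946), miR-362-3p (0.939), miR-200a-3p (0.938) and let-7f-5p (0.934). None of these 5 was called, and their log2 fold changes ran from -0.019 to 0.047. The least alike were miR-466h-3p (-0.758), miR-706 (-0.754) and miR-466f-3p (-0.701). The median over the 280 other tested miRNAs was 0.212. These values describe likeness over arrays that share labelling and scaling, and carry no test.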

How the data were processed

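Kidney RNA (100 ng per labelling, Cy3) of 4 Akita and 4 control samples was measured on 8 one-colour arrays of 1 slide. The deposited files hold spot intensities, extracted with Agilent Feature Extraction 12.0.3.1 per the file headers, with a spatial background subtracted and no scaling between arrays. The authors' deposited value table holds a linear ratio to each miRNA's median over the arrays; its factor per array was not stated, and it served as an alternative. Its columns' scale and centring were taken from its values.

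Control and outlier spots were left out, and no spot was saturated. A probe was above background where at least 0.5 of its spots were. Intensities were averaged per probe, scaled, summed per miRNA, floored at 23.8 and logged. Tested were miRNAs above background on all 4 arrays of a group, with limma 3.58.1 in R 4.3.3 (two-sided), which was tested on simulated data. Arm ratios were compared by exact permutation over 35 splits, and by limma over all hairpins, a test added after the data were seen, as were the arm ratios under quantile and cyclic loess scaling. Named are the members, the 5 most and 3 least alike miRNAs, and called members of the metabolism list; the other listed miRNAs and arms named were chosen after their values were seen. The members and lists were chosen with earlier results of these data known. The number of arrays limits the precision. Alternatives, 17 beside 8 fits without 1 array, covered scaling, background, floor, filter, probe summary, outliers and the replicate number as a block.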

Additional observations from a re-analysis of the deposited data

Results flagged for a closer look

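The value of miR-378c in control replicate 2 stood apart from its group. It was 6.94 on the log2 scale, above 6.84 to 6.85 in the other 3 control kidneys, and its gap of 0.911 of the group's range exceeded Dixon's 95% critical value for 4 samples. It was the only one of 32 groups of 4 values checked that did so, where chance flags about 1 in 20. The Akita values, from 6.77 to 7.04, lay on both sides of it, and without it the log2 fold change of miR-378c was 0.028.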

How the results depend on the processing

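Over all miRNAs, 109 were called without scaling (5 higher in Akita, 104 lower), 116 with the spike-ins (7 and 109), 14 with the percentile over all probes (10 and 4), 70 with cyclic loess (29 and 41), 89 with normexp (81 and 8), 9 with the floor 4 times higher, 6 with no filter on dim miRNAs, where most variances were 0 and the fit is unreliable, and 25 with the replicate block, against 42 (24 and 18). The normexp setting subtracts the background in another way and adds an offset of 50 before scaling, and the part of each in its calls was not tested. Unscaled arrays gave 4 called members, spike-in scaling 5, and the other 15 alternatives 0. Called probes of the family numbered 9 in each of these, and called members of the metabolism list 12 and 11, against 1 with the higher floor and 1 with no filter. Unscaled and spike-in scaled, the log2 fold changes were -0.27 and -0.24 for miR-378a-3p, -0.40 and -0.37 for miR-378a-5p, -0.28 and -0.26 for miR-378b, -0.27 and -0.24 for miR-378c, and -0.32 and -0.29 for miR-378d. Uncalled values near 0 changed sign: miR-378a-3p was -0.011 with cyclic loess, -0.027 in the deposited value table and -0.016 with outlier spots kept; miR-378c was -0.11 with quantile scaling, -0.087 with cyclic loess, -0.028 in the value table and -0.026 with outlier spots kept; miR-378b and miR-378d were 0.081 and 0.046 with the percentile over all probes; and miR-378a-5p was 0.073 with normexp, whose offset of 50 is as large as its probes' signals.

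The arm ratio difference of 0.14 was -0.072 with normexp, in both tests, and which part of that setting changed its sign was not tested. The difference was 0.21 with cyclic loess (exact permutation p = 0.114) and 0.24 with quantile scaling (exact permutation p = 0.0286, limma adjusted p over all hairpins 0.0472), both added after the data were seen. It was 0.12 with the brightest probes only (exact permutation p = 0.0571) and 0.027 with the higher floor (exact permutation p = 0.6), which lies above most 5p signals. Over all hairpins its limma adjusted p was 0.0482 with mean log2 probe signals (difference 0.14) and 0.0485 with outlier spots kept (0.15). The replicate number equals the position within the slide row. Same-numbered samples correlated at 0.10, -0.30, 0.34 and -0.35 in their deviations from the group means, and 4 such values cannot decide whether the samples were paired. With the replicate block the arm difference of 0.14 had an exact p of 0.125, the smallest that 4 pairs allow, and no member was called.

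Without 1 array, calls over all miRNAs ranged from 18 to 37, 0 members and 0 family probes were called, and 4 members of the metabolism list were. The log2 fold change ranged from -0.076 to 0.029 for miR-378a-3p, -0.23 to -0.087 for miR-378a-5p, -0.081 to 0.015 for miR-378b, -0.050 to 0.028 for miR-378c and -0.12 to -0.01 for miR-378d. The arm difference ranged from 0.12 to 0.15, with an exact permutation p of 0.0571 without control replicate 2 and 0.0286 without any other array.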
